A study of Homo sapiens with 12 samples.

Results

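The comparison described here is the effect of 500 nM THZ531 (THZ_5_31_1 in the labels) on each gene in TC32 cells minus the effect of the same dose in A673 cells. It covers 9505 genes of the 16913 with a usable single-gene entry in the series. A gene entered when its 12 deposited values carried 3 decimals and its mean log2 signal with DMSO was at least 6 in both lines. TC32 and A673 are established Ewing sarcoma cell lines, and the design names both as highly sensitive to the compound. The 8 arrays used were 2 of TC32 at 500 nM, 2 of TC32 with DMSO, 2 of A673 at 500 nM and 2 of A673 with DMSO, all treated for 6 hours. The other 4 arrays, 2 of each line at 100 nM, took part in estimating the spread between arrays. Both lines grew in DMEM with 10% fetal bovine serum, penicillin-streptomycin and glutamine, and an ERCC spike-in mix was added to the total RNA of all samples. Each line stands for its tumour type as a single culture model, and the labels call the arrays of a group biological replicates without naming separate cultures, so p-values measure the spread between these arrays only.

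THZ531 binds covalently to CDK12 and CDK13, kinases that with cyclin K phosphorylate the tail of RNA polymerase II during elongation. Loss of their activity is known to hit long genes, many of them DNA repair genes, through premature cleavage and polyadenylation. The driver of Ewing sarcoma is the EWS/FLI fusion protein, which joins part of EWSR1 to the DNA-binding part of FLI1 and activates genes such as NKX2-2. Among other known differences, A673 carries an activating BRAF mutation and truncated p53, while TC32 has wild-type p53. In bulk RNA, fewer cells and less RNA per cell cannot be told apart.

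Values are log2 signals minus the median of their array over the 16913 genes, and "effect" is the mean at 500 nM minus the mean with DMSO. "Difference" is the TC32 effect minus the A673 effect, so a positive difference says that the drug left the gene relatively higher in TC32, whatever the level in either line. A gene was called when limma's moderated test gave a Benjamini-Hochberg adjusted p under 0.05 over the 9505 genes. Array medians lay at 5.742 and 5.680 in TC32 at 500 nM, against 6.536 and 6.471 with DMSO, and at 6.596 and 6.130 in A673 at 500 nM, against 7.319 and 7.071 with DMSO. The median effect over the tested genes was 0.07 in TC32 and 0.05 in A673 after centring, and -0.72 and -0.79 on the deposited scale, so every rise or fall given below is relative to the median gene. The median difference was 0.05 after centring and 0.09 as deposited. The mean at 500 nM lay under 6 for 2293 of the genes in TC32 and 817 in A673, and such group means, on the deposited scale, are pointed out as under 6 because no detection call is given in the sources used here. At the edge of the DMSO rule, USP2 was just inside with a lower mean of 6.001 and PPIP5K1 just outside with 5.999. The 11 Ewing sarcoma markers had DMSO medians of 10.83 in TC32 and 10.89 in A673, on the deposited scale, while the medians of the haematopoietic, epithelial, endothelial and fibroblast, and neural markers lay between 5.20 and 5.86 in TC32 and between 5.87 and 6.62 in A673.

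For most genes the effects lay close together: the difference was under 0.5 in absolute size for 86.4% of the tested genes. The test called 931 genes (9.79%, with 25.8% at an unadjusted p under 0.05), of which 267 (2.81%) had a higher effect in TC32 and 664 (6.99%) a lower one. Differences of at least 1 were called for 27 genes (0.284%) on the higher side and 121 genes (1.27%) on the lower side. Against DMSO alone, 3532 genes rose (37.2%) and 3226 fell (33.9%) in TC32, and 2517 rose (26.5%) and 2864 fell (30.1%) in A673. Array differences were also taken as each 500 nM array minus each DMSO array of the same line. Those of TC32 lay wholly above those of A673 for 2004 genes (21.1%) and wholly below for 1746 genes (18.4%). Non-overlap alone is thus a weak criterion with 2 arrays per group. Of the 664 genes with a lower effect in TC32, 372 fell in both lines and further in TC32, 206 were called in TC32 and not in A673, 35 in A673 and not in TC32, 17 rose in both lines and further in A673, and 34 moved in opposite directions. Of the 267 genes with a higher effect, 69 fell in both lines and further in A673, 51 rose in both and further in TC32, 89 were called in TC32 and not in A673, 43 in A673 and not in TC32, and 15 moved in opposite directions. For 198 of the 664 genes the TC32 mean at 500 nM, and no other mean at 500 nM, lay under 6.

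The number of calls depended on single arrays and on the scaling. The count on the higher side was 133 without A673 500 nM replicate 1, 121 without A673 500 nM replicate 2, 125 without TC32 DMSO replicate 1, 87 without TC32 DMSO replicate 2, 134 without TC32 500 nM replicate 2 and 505 without A673 DMSO replicate 1. The count on the lower side was 361 without A673 500 nM replicate 1, 325 without TC32 DMSO replicate 1, 439 without TC32 DMSO replicate 2, 381 without TC32 500 nM replicate 1 and 1104 without A673 DMSO replicate 2. Centring on the tested genes in place of all 16913 gave 1154 higher and 1013 lower calls, quantile normalisation 818 and 1286, and the values as deposited 32 and 109, so the split of higher against lower calls moved with the scaling. On the deposited scale each gene list below had at most 5 calls in a direction, and among the genes given with values below, MYC, BRD3, CENPA, AURKB, KNL1, GMNN, ISL1, SOX6, ADRA1D, NOP16, SNORA3B, SNORA33, LEO1, MEPCE, CDK19, ATF4, HERPUD1, SLC7A5, PDK1, BNIP3L, CDT1, KIF23, FLI1, TRIAP1, PMAIP1, RPS27L, FANCI, RNF8, H2AX and NOC2L were not called. Of the 931 calls, 59 on the higher side and 273 on the lower side held without each of the 12 arrays.

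**Figure D1:**
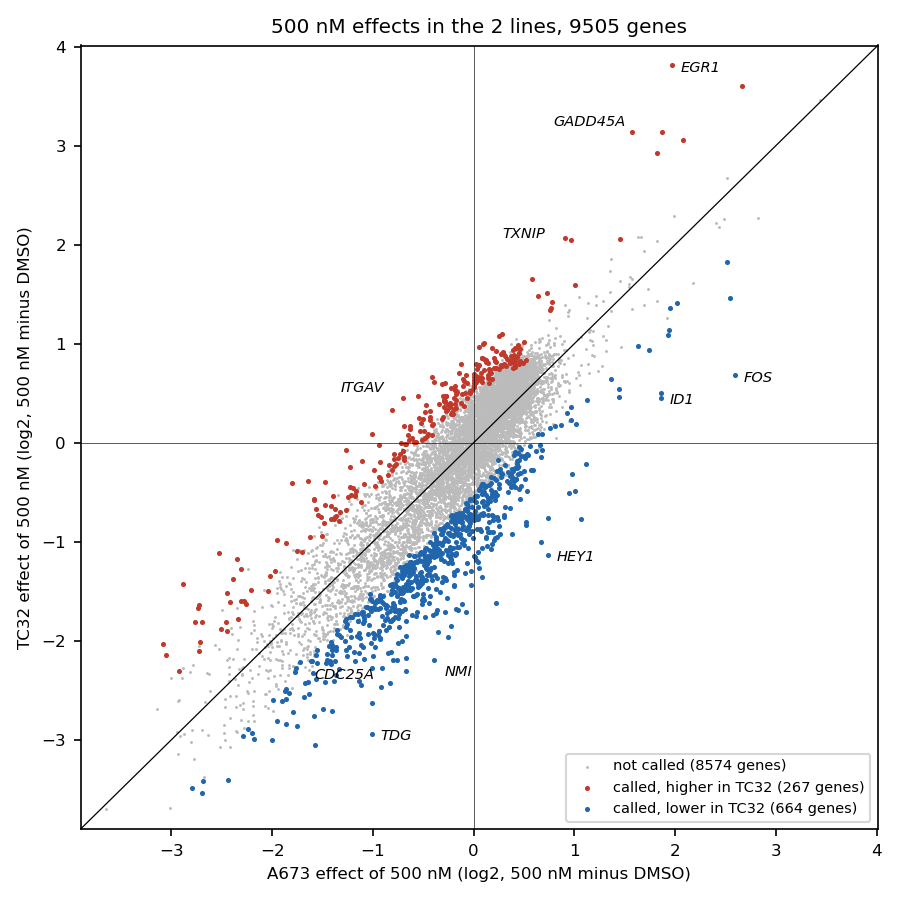
Effect of 500 nM in TC32 (vertical axis) against the effect in A673 (horizontal axis), both as log2 signal at 500 nM minus DMSO after centring, 1 point per gene, with the line of equal effects. The 267 genes called higher in TC32 lie above the line and the 664 called lower lie below it, most of these 664 in the quadrant where both lines fell.

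The largest positive difference and a negative one of similar size belonged to immediate-early genes, which cells switch on within minutes of a stimulus. EGR1, a zinc finger transcription factor, rose by 3.81 in TC32 and 1.97 in A673, whereas FOS, a subunit of the AP-1 transcription factor, rose by 0.68 in TC32 and 2.59 in A673. The promoters of both genes are printed because their differences had opposite signs. The windows run from 250 bases before to 50 bases after the start of the gene and come from RefSeq on GRCh38.p14, both on the plus strand, EGR1 at chr5:138465229-138465528 and FOS at chr14:75278578-75278877. Capitals mark matches on either strand to the CArG box, the site of serum response factor, and to TGACG, the core of the cAMP response element (CGTCA on the other strand).
EGR1: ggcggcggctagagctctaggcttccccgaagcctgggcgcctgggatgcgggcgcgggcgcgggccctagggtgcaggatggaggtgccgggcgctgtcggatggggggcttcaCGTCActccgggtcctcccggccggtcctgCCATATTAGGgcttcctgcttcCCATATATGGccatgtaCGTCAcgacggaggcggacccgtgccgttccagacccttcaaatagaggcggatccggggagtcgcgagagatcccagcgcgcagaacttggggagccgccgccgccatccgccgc
FOS: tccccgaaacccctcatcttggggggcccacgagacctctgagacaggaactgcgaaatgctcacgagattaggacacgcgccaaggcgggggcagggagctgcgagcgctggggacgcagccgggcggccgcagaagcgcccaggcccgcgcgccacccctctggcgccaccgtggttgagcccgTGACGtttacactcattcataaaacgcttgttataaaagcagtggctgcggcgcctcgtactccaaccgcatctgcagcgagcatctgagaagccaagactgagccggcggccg
The EGR1 window held 2 CArG boxes and 2 TGACG matches, and the FOS window held 0 CArG boxes and 1 TGACG match. A CArG box occurred in 1.29% of the 35116 promoter windows in the table and TGACG in 24.6%, and in 1.07% and 35.9% of the 7929 windows of tested genes. Of the 32 tested immediate-early genes, 24 matched a window by symbol, and 2 of these held a CArG box (8.33%) and 13 a TGACG match (54.2%). These matches describe the letters in the windows only. Sequence further than 250 bases before the start was not searched, so a count of 0 does not mean that the gene lacks such a site.

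EGR1 stood at 3.81 and 3.64 at 500 nM in TC32, against 0.04 and -0.20 with DMSO. In A673 it stood at 5.46 and 5.42 at 500 nM, against 3.44 and 3.49 with DMSO. The groups did not overlap in either line, and EGR1 was lower in TC32 than in A673 at 500 nM and, by a wider gap, with DMSO. The difference was 1.84 ± 0.17 (SE, adjusted p = 1.26e-06), a ratio of 3.58 between the fold changes. FOS stood at 4.65 and 5.01 at 500 nM in TC32, against 4.03 and 4.27 with DMSO. A673 had 5.20 and 5.28 at 500 nM, against 2.42 and 2.88 with DMSO. Here the DMSO level was the higher one in TC32, and the rise in TC32 was the smaller one. The difference was -1.91 ± 0.21 (SE, adjusted p = 6.24e-06).

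Other members of the immediate-early list were called in both directions. Of its 32 tested members, 5 were called higher in TC32 (EGR1, IER2, IER3, IER5 and JUNB) and 9 lower (FOS, NR4A1, KLF10, MYC, ZFP36, ZFP36L1, ZFP36L2, CCN1 and CCN2), beside 2.81% and 6.99% of all genes. The list's median difference was -0.32, against 0.05 for all genes, and its median effects were 0.78 in TC32 and 1.32 in A673. IER5, a stress-induced nuclear protein, had 4.76 and 4.80 at 500 nM in TC32, against 1.87 and 1.82 with DMSO. A673 had 4.46 and 4.19 at 500 nM, against 2.44 and 2.56 with DMSO. Its effects were 2.93 in TC32 and 1.82 in A673, a difference of 1.10 ± 0.16 (SE, adjusted p = 0.000125). IER3, a short-lived regulator of cell survival, rose by 3.60 in TC32 and 2.66 in A673, a difference of 0.94 ± 0.14 (SE, adjusted p = 0.000122). ZFP36, which promotes decay of AU-rich mRNAs, had 3.72 and 3.70 at 500 nM in TC32, against 2.41 and 2.10 with DMSO. A673 had 3.73 and 3.58 at 500 nM, against 0.97 and 1.25 with DMSO. ZFP36 ended at overlapping levels in the lines after centring, from a lower DMSO level in A673. Its deposited values at 500 nM did not overlap, with means of 9.425 in TC32 and 10.017 in A673. The ZFP36 difference was -1.09 ± 0.19 (SE, adjusted p = 0.000779). MYC, the growth-promoting transcription factor, had 4.61 and 4.95 at 500 nM in TC32, against 4.57 and 4.54 with DMSO, an effect of 0.23 that was not called. In A673 MYC rose, with 5.64 and 5.70 at 500 nM, against 4.54 and 4.86 with DMSO, and the difference was -0.74 ± 0.16 (SE, adjusted p = 0.00401). The count of 9 was 5 without TC32 500 nM replicate 1 and the highest count was 12. The calls of JUNB, KLF10, ZFP36L2, CCN1 and CCN2 ended without 1 array or more.

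**Figure D2:**
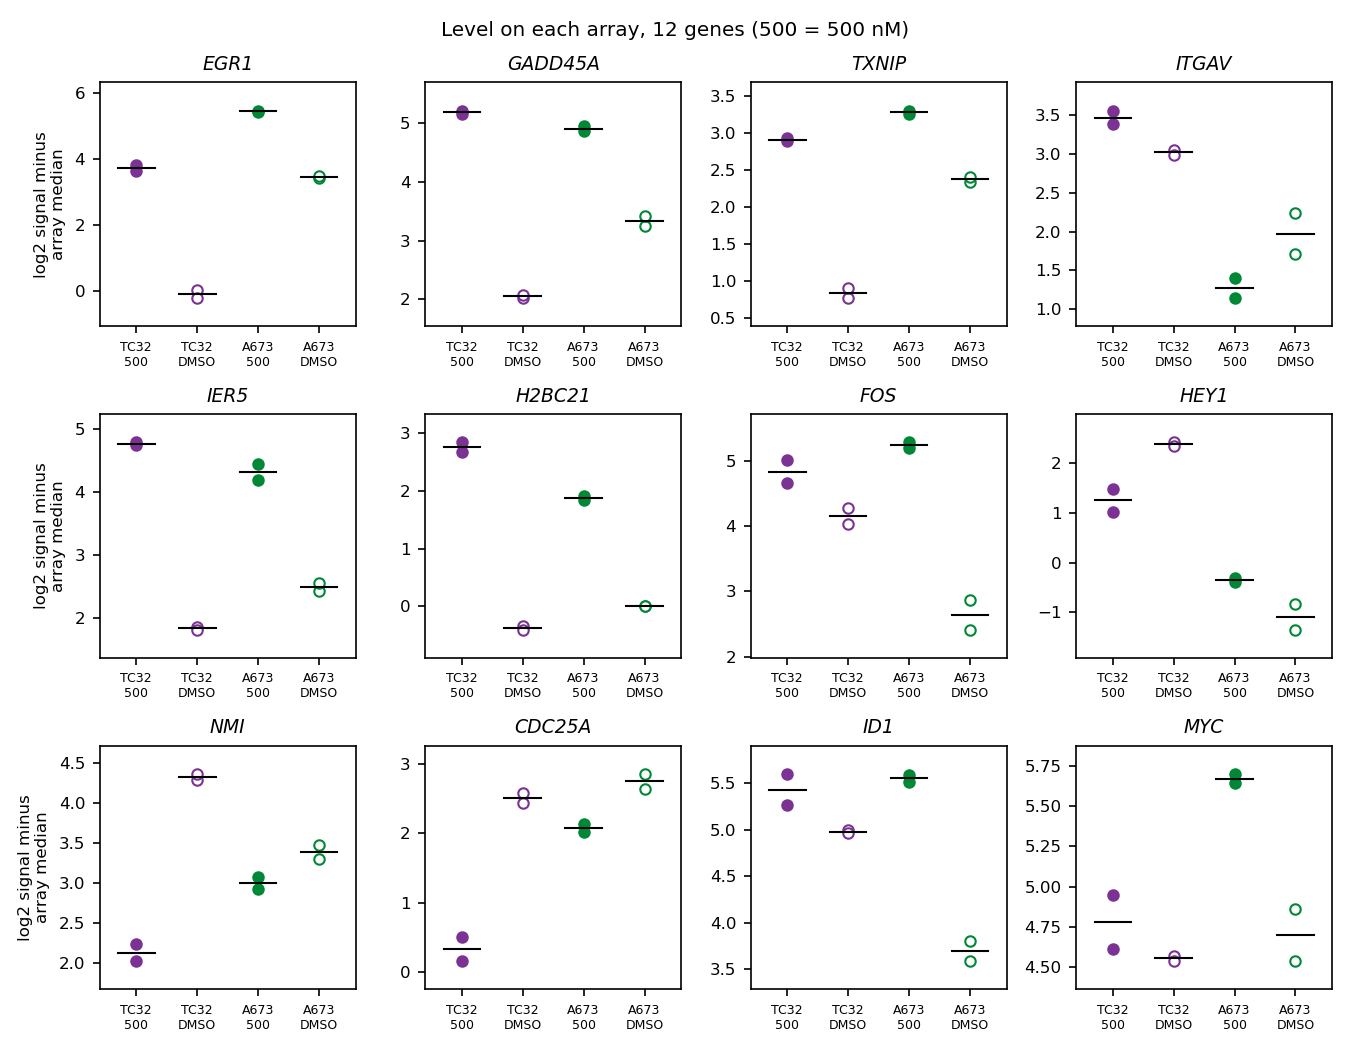
Log2 signal minus the array median (vertical axis) on each of the 8 arrays for 12 genes, with TC32 at 500 nM, TC32 with DMSO, A673 at 500 nM and A673 with DMSO from left to right in each panel, points for arrays and bars for group means. EGR1 had a DMSO level near 0 in TC32, whereas FOS had its lower DMSO level in A673.

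Among the genes with the largest positive differences, GADD45A, TXNIP, H2BC21, OSMR and PHF20L1 rose in both lines and further in TC32. GADD45A, a p53-inducible protein that acts in growth arrest and DNA repair, had 5.16 and 5.22 at 500 nM in TC32, against 2.02 and 2.08 with DMSO. A673 had 4.96 and 4.87 at 500 nM, against 3.25 and 3.42 with DMSO. After centring, TC32 lay above A673 at 500 nM and below it with DMSO. On the deposited scale GADD45A was lower in TC32 at 500 nM too, with means of 10.90 in TC32 and 11.28 in A673. The effects were 3.14 in TC32 and 1.58 in A673, with a difference of 1.56 ± 0.15 (SE, adjusted p = 1.68e-06). TXNIP, which binds thioredoxin and restrains glucose uptake, had 2.89 and 2.92 at 500 nM in TC32, against 0.77 and 0.90 with DMSO. A673 had 3.30 and 3.25 at 500 nM, against 2.34 and 2.40 with DMSO, and the difference was 1.17 ± 0.16 (SE, adjusted p = 7.85e-05). H2BC21, a histone H2B gene, had 2.84 and 2.68 at 500 nM in TC32, against -0.34 and -0.41 with DMSO. In A673 it had 1.90 and 1.84 at 500 nM, against 0.01 and 0.00 with DMSO. H2BC21 started near the array median in both lines and ended higher in TC32, with a difference of 1.26 ± 0.15 (SE, adjusted p = 1.82e-05). OSMR, the oncostatin M receptor, rose by 2.05 in TC32 and 0.97 in A673, and PHF20L1, a reader of methylated lysines, by 1.65 in TC32 and 0.58 in A673.

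Of the 28 tested p53 target genes, 4 were called higher in TC32 (14.3%) and 0 lower, beside 2.81% and 6.99% of all genes, and the median difference was 0.08, against 0.05 for all genes. Beside GADD45A these were TRIAP1 with 0.67, PMAIP1 with 0.59 and RPS27L with 0.45. TRIAP1 and PMAIP1 act in survival and death after p53 activation. The 4 calls became 1 without A673 500 nM replicate 2 or TC32 DMSO replicate 2, and 2 without TC32 DMSO replicate 1 or TC32 500 nM replicate 2. RPS27L also changed sign under quantile normalisation, to -0.019. In TC32 itself 10 of the 28 rose and 10 fell, beside 37.2% and 33.9% of all genes, and in A673 8 rose and 13 fell, beside 26.5% and 30.1%. Of the 17 tested replication-dependent histone genes, 3 were called higher (H2BC21, H2BC5 and H4C3, 17.6%) and 0 lower, with a median difference of 0.31. That count was 1 without A673 500 nM replicate 2 or TC32 DMSO replicate 2, and 6 without A673 DMSO replicate 2. In all, 15 of the 17 rose in TC32 and 14 in A673.

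A second set with positive differences fell in both lines or in A673, and fell less in TC32. TBC1D9, a member of a family of Rab GTPase-activating proteins, had 2.05 and 2.04 at 500 nM in TC32, against 2.53 and 2.37 with DMSO. A673 had 0.84 and 0.93 at 500 nM, against 2.50 and 2.88 with DMSO. The effects were -0.41 in TC32 and -1.80 in A673, a difference of 1.39 ± 0.18 (SE, adjusted p = 2.75e-05). FBXO28, an F-box protein of ubiquitin ligases, had 1.88 and 1.77 at 500 nM in TC32, against 3.55 and 3.43 with DMSO. A673 had 0.09 and -0.01 at 500 nM, against 2.73 and 2.83 with DMSO. FBXO28 fell steeply in both lines, and the difference was 1.07 ± 0.18 (SE, adjusted p = 0.000467). SLFN11, which sensitises cells to replication stress, changed by -1.37 in TC32 and -2.39 in A673. CREBZF, a bZIP protein, changed by -0.57 in TC32 and -1.58 in A673. SCG2, a secretory granule protein, had an effect of 0.08 in TC32 that was not called, and fell by 1.01 in A673. IKZF2, a zinc finger factor of the Ikaros family, ZNRF3, a ubiquitin ligase that removes Wnt receptors, and TET1, a methylcytosine dioxygenase, had differences of 1.46, 1.42 and 1.17, but their means at 500 nM lay under 6 in both lines, as did those of STARD13 with 1.26. The mean of DGKG, a diacylglycerol kinase with a difference of 1.20, lay under 6 at 500 nM in TC32.

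Opposite directions were called for 15 genes that rose in TC32 and fell in A673 (0.158%) and 34 that fell in TC32 and rose in A673 (0.358%). ITGAV, the integrin alpha-V chain, had 3.38 and 3.56 at 500 nM in TC32, against 3.06 and 2.98 with DMSO. A673 had 1.15 and 1.40 at 500 nM, against 1.71 and 2.23 with DMSO. TC32 arrays lay above A673 arrays throughout, and the lines diverged further with the drug, by 1.15 ± 0.20 (SE, adjusted p = 0.000779). DCP2, the mRNA decapping enzyme, rose by 0.66 in TC32 and fell in A673 with an effect of -0.41. SYT1, the calcium sensor of synaptic vesicles, had effects of 0.47 in TC32 and -0.55 in A673. HEY1, a repressor downstream of Notch, had 1.02 and 1.48 at 500 nM in TC32, against 2.42 and 2.35 with DMSO. A673 had -0.39 and -0.32 at 500 nM, against -1.35 and -0.84 with DMSO. HEY1 stayed higher in TC32 on every array although it fell there, and its difference was -1.88 ± 0.21 (SE, adjusted p = 7.23e-06). Its A673 means on the deposited scale lay near 6, at 6.10 with DMSO and 6.01 at 500 nM, so its rise in A673 is relative to the median gene only. KCNE4, a potassium channel subunit, had 4.07 and 4.33 at 500 nM in TC32, against 5.03 and 4.88 with DMSO. A673 had 4.97 and 4.77 at 500 nM, against 4.09 and 4.17 with DMSO, and the difference was -1.50 ± 0.15 (SE, adjusted p = 1.90e-06). SOWAHC, an ankyrin repeat protein, changed by -1.0 in TC32 and 0.67 in A673. MSX1, a homeobox factor, changed by -0.51 in TC32 and 0.95 in A673. GATA2, a haematopoietic and neural zinc finger factor, changed by -0.84 in TC32 and 0.52 in A673. RASL11B, a small GTPase, changed by -0.77 in TC32 and 1.07 in A673, with its TC32 mean at 500 nM under 6. The directions rest on centring: on the deposited scale 0 genes were called in opposite directions. With centring on the tested genes, 5 of the 15 and 10 of the 34 kept their opposite calls, and with quantile normalisation 8 and 17. The 15 became 4 without TC32 DMSO replicate 2, 7 without TC32 DMSO replicate 1 or TC32 500 nM replicate 2, and 31 without A673 DMSO replicate 1, and the 34 became 14 without TC32 DMSO replicate 1, 21 without TC32 DMSO replicate 2, 19 without A673 500 nM replicate 1, 17 without TC32 500 nM replicate 1 and 59 without A673 DMSO replicate 2.

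NMI, SLC20A1, SLC38A2, ISG20L2, PIM3 and NANOS1 fell in TC32, and fell less or were not called in A673. NMI, a partner of MYC and STAT proteins, had 2.02 and 2.24 at 500 nM in TC32, against 4.29 and 4.36 with DMSO. A673 had 2.92 and 3.07 at 500 nM, against 3.31 and 3.48 with DMSO. TC32 was the lower line at 500 nM and the higher one with DMSO, and the NMI difference was -1.80 ± 0.16 (SE, adjusted p = 1.26e-06). SLC20A1, a phosphate importer, had 2.15 and 2.48 at 500 nM in TC32, against 4.34 and 4.23 with DMSO. A673 had 4.57 and 4.47 at 500 nM, against 4.63 and 4.92 with DMSO. SLC20A1 fell in TC32 and was not called in A673, with a difference of -1.71 ± 0.17 (SE, adjusted p = 1.87e-06). SLC38A2, an amino acid transporter induced by starvation, fell with effects of -2.20 in TC32 and -0.76 in A673, a difference of -1.44 ± 0.14 (SE, adjusted p = 1.87e-06). ISG20L2, a nuclease that trims ribosomal RNA, had 0.29 and 0.35 at 500 nM in TC32, against 3.43 and 3.31 with DMSO. A673 had 1.74 and 1.46 at 500 nM, against 3.10 and 3.26 with DMSO, and the difference was -1.47 ± 0.17 (SE, adjusted p = 7.23e-06). PIM3, a survival kinase, had effects of -1.68 in TC32 and -0.18 in A673, the second of which was not called. NANOS1, an RNA-binding repressor of translation, had effects of -1.69 in TC32 and -0.15 in A673 and lay near or under the array median in A673. TDG, the DNA glycosylase that removes thymine from mismatches, had the largest negative difference of the called genes, -1.93 ± 0.18 (SE, adjusted p = 1.26e-06), with -0.14 and -0.36 at 500 nM in TC32, against 2.70 and 2.67 with DMSO. A673 had 3.17 and 2.98 at 500 nM, against 3.90 and 4.26 with DMSO. Its TC32 mean at 500 nM lay under 6, as did those of PAX6, a neural homeobox factor (-1.83), and CLDN1, a tight junction protein (-1.64). TOX3, an HMG-box protein, had a difference of -1.62, but its 2 A673 DMSO arrays were far apart, at 0.39 and 1.83, and the call ended without either A673 500 nM array, without TC32 DMSO replicate 1 and without TC32 500 nM replicate 1.

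CDC25A, CCNE1 and CCNE2, regulators of entry into S phase, were called lower in TC32. CDC25A is the phosphatase that activates CDK2, and its promoter is shown because E2F factors, which drive such genes, bind a site spelled in these windows as TTTCCCGC, TTTCGCGC, TTTGCCGC or TTTGGCGC. The CDC25A window lies at chr3:48188368-48188667 on the minus strand (RefSeq, GRCh38.p14), with the match on either strand in capitals.
CDC25A: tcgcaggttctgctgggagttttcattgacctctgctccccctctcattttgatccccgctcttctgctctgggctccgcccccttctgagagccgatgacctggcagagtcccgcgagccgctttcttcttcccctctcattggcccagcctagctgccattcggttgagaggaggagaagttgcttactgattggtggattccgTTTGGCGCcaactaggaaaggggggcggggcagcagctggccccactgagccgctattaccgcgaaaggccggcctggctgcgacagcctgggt
The window held 1 such match. E2F matches occurred in 3.31% of all promoter windows, in 5.74% of those of tested genes and in 21 of the 38 windows found for the 45 tested genes of G1/S and DNA replication. Among called genes they occurred in 5.42% of the 554 windows of genes called lower in TC32 and in 6.61% of the 227 windows of genes called higher, both near the share of tested genes. CDC25A had 0.15 and 0.50 at 500 nM in TC32, against 2.58 and 2.43 with DMSO. A673 had 2.13 and 2.02 at 500 nM, against 2.64 and 2.85 with DMSO, and the difference was -1.50 ± 0.19 (SE, adjusted p = 1.84e-05). CCNE1, cyclin E1, had -0.77 and -0.61 at 500 nM in TC32, against 1.20 and 1.13 with DMSO. A673 had 1.24 and 1.14 at 500 nM, against 1.34 and 1.49 with DMSO. CCNE1 started at similar levels in the lines after centring and fell in TC32 to a mean under 6, and its effect in A673 was not called. CCNE2, cyclin E2, changed by -2.30 in TC32 and -0.67 in A673. The differences were -1.63 ± 0.17 (SE, adjusted p = 2.26e-06) for CCNE1 and -1.63 ± 0.17 (SE, adjusted p = 1.96e-06) for CCNE2. GMNN and CDT1, which control licensing of replication origins, had differences of -0.82 and -0.74. Of the 45 tested genes of this list, 6 were called lower (CCNE1, CCNE2, E2F2, CDT1, GMNN and PRIM1, 13.3%) and 2 higher (RRM1 and TK1, 4.44%), beside 6.99% and 2.81% of all genes, with a median difference of -0.04. The 2 higher calls were 0 without either A673 500 nM array, without either TC32 DMSO array and without TC32 500 nM replicate 2. The call of CDT1 ended without A673 500 nM replicate 2, TC32 DMSO replicate 1 or TC32 500 nM replicate 1.

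Among 49 tested genes of G2/M and mitosis, 8 were called lower (16.3%) and 3 higher (6.12%), beside 6.99% and 2.81% of all genes, with a median difference of 0.06, against 0.05 for all genes. CENPA, the centromeric histone, had 0.53 and 0.46 at 500 nM in TC32, against 3.97 and 3.84 with DMSO. A673 had 1.51 and 1.40 at 500 nM, against 3.91 and 3.88 with DMSO. CENPA fell steeply in both lines and further in TC32, with a difference of -0.97 ± 0.16 (SE, adjusted p = 0.000352). AURKB, a mitotic kinase of the passenger complex, changed by -1.48 in TC32 and -0.63 in A673, and KIF23, a kinesin of the midzone, by -1.66 in TC32 and -0.81 in A673. KNL1, a kinetochore scaffold, was called higher, with effects of 0.17 in TC32, which was not called, and -0.69 in A673. The 8 lower calls were 5 without A673 500 nM replicate 1 or TC32 500 nM replicate 1 and 4 without TC32 DMSO replicate 1. The call of KIF23 ended without any of these 3 arrays.

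Of 22 tested transcription factors of Ewing sarcoma, 8 were called lower (36.4%), 2 higher (9.09%) and 12 neither way, beside 6.99% and 2.81% of all genes called lower and higher, with a median difference of -0.21, and 11 of the 22 had a group mean under 6. NKX2-2, a homeobox factor activated by the fusion protein, had 2.53 and 2.77 at 500 nM in TC32, against 4.43 and 4.30 with DMSO. A673 had 3.21 and 3.15 at 500 nM, against 3.54 and 3.56 with DMSO. NKX2-2 started higher and ended lower in TC32, a difference of -1.35 ± 0.15 (SE, adjusted p = 7.23e-06). ID1, an inhibitor of bHLH factors and a target of BMP signalling, had 5.26 and 5.60 at 500 nM in TC32, against 5.0 and 4.96 with DMSO. A673 had 5.52 and 5.60 at 500 nM, against 3.58 and 3.81 with DMSO. At 500 nM ID1 lay at overlapping levels in the lines after centring. The deposited values did not overlap, with means of 11.145 in TC32 and 11.922 in A673. The ID1 difference was -1.41 ± 0.16 (SE, adjusted p = 5.07e-06). ISL1, a LIM-homeobox factor, changed by -1.69 in TC32 and -0.75 in A673, with the TC32 mean at 500 nM under 6. SOX6, an SRY-related factor, was called higher, with effects of 0.54 in TC32 and -0.18 in A673. The 2 higher calls were 1 without TC32 DMSO replicate 2. FLI1, whose entry on the array may also read the fusion transcript, which was not tested, fell by 2.53 in TC32 to a mean under 6 and by 1.83 in A673. Its difference of -0.70 ± 0.19 (SE, adjusted p = 0.0225) was no longer called without A673 DMSO replicate 1, either A673 500 nM array, either TC32 DMSO array or TC32 500 nM replicate 2.

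The list of Hippo, TGF-beta, BMP and Wnt genes, which shares ID1 with the preceding one, had 10 of 35 tested members called lower (28.6%) and 1 higher (ZNRF3, 2.86%), beside 6.99% and 2.81% of all genes, with a median difference of -0.23. The 10 were AMOTL2, AJUBA, CCN1, CCN2, ID1, ID3, ID4, BAMBI, GDF6 and FZD7. ID4, a further inhibitor of bHLH factors, had 1.08 and 1.33 at 500 nM in TC32, against 2.67 and 2.46 with DMSO. A673 had 3.69 and 3.71 at 500 nM, against 3.43 and 3.80 with DMSO. ID4 fell in TC32 and was not called in A673, with a difference of -1.44 ± 0.18 (SE, adjusted p = 2.69e-05). AJUBA, a LIM protein that restrains Hippo kinases, changed by -2.47 in TC32 and -0.92 in A673, with the TC32 mean at 500 nM under 6. The calls of AMOTL2, GDF6 and FZD7 ended without 1 array or more, as did those of CCN1 and CCN2.

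Of 38 genes that EWS/FLI is known to activate, 3 were called lower (7.89%) and 2 higher (5.26%), near the 6.99% and 2.81% of all genes, and the median difference was 0.07. NPY1R, a neuropeptide Y receptor, had 2.24 and 2.43 at 500 nM in TC32, against 3.83 and 3.92 with DMSO. A673 had 4.41 and 4.39 at 500 nM, against 4.83 and 5.11 with DMSO. NPY1R fell in both lines and further in TC32, with a difference of -0.96 ± 0.18 (SE, adjusted p = 0.00107). ADRA1D, an adrenergic receptor, changed by -1.66 in TC32 and -0.79 in A673. The 3 lower calls were 8 without A673 DMSO replicate 2 and 5 without TC32 500 nM replicate 2. Of 18 genes the fusion represses, 1 was called higher (5.56%) and 2 lower (11.1%), the 2 becoming 0 without TC32 500 nM replicate 1. The targets of the compound themselves were not called: CDK12 had a difference of 0.19 ± 0.17 (SE, adjusted p = 0.515), CDK13 of 0.56 ± 0.24 (SE, adjusted p = 0.147) and CCNK, the gene of cyclin K, of -0.05 ± 0.16 (SE, adjusted p = 0.873). CDK12 fell in both lines, by effects of -0.45 in TC32 and -0.65 in A673. CDK13 fell too, by effects of -1.26 in TC32 and -1.82 in A673, to means under 6 in both. EWSR1 had effects of 0.38 in TC32 and 0.38 in A673 and a difference of 0.00.

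Of 44 tested genes of ribosome biogenesis and polymerase I, 8 were called lower (18.2%) and 1 higher (2.27%), beside 6.99% and 2.81% of all genes, with a median difference of -0.26 and median effects of -0.40 in TC32 and -0.06 in A673. LYAR, a nucleolar protein, had 1.42 and 1.54 at 500 nM in TC32, against 2.69 and 2.47 with DMSO. A673 had 3.45 and 3.17 at 500 nM, against 3.14 and 3.38 with DMSO. LYAR fell in TC32 and was not called in A673, and the difference was -1.15 ± 0.20 (SE, adjusted p = 0.000603). NOP16, a factor of the large subunit, had effects of -1.06 in TC32 and -0.14 in A673. NOC2L, a nucleolar protein, was the 1 gene called higher, with 0.79, and its call ended without TC32 DMSO replicate 2. The 8 lower calls were 4 without A673 500 nM replicate 1, TC32 DMSO replicate 2 or TC32 500 nM replicate 1, 5 without A673 DMSO replicate 1, A673 500 nM replicate 2 or TC32 DMSO replicate 1, and 14 without A673 DMSO replicate 2. Of 64 cytoplasmic ribosomal protein genes, all 64 rose relative to the median in both lines. Over all genes, 37.2% rose in TC32 and 26.5% in A673. The list's median effects were 0.76 in TC32 and 0.54 in A673. For the difference, 7 of the 64 (10.9%) were called higher in TC32, 0 lower and the other 57 neither way. The median difference of 0.22 became 0.03, with 0 higher calls, under quantile normalisation, and there were 0 calls as deposited. The 66 oxidative phosphorylation genes had a median difference of 0.30 and 4 higher calls, 0.14 and 11 calls under quantile normalisation, and 0 calls as deposited. Leaving out single arrays moved the 7 calls between 0 and 16 and the 4 calls between 0 and 11, the lowest without TC32 DMSO replicate 2 for both and the highest without a TC32 100 nM array.

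Of 15 small nucleolar RNAs and host genes, 4 were called lower (SNHG12, SNHG7, SNORA33 and SNORA3B, 26.7%) and 0 higher, beside 6.99% and 2.81% of all genes. SNORA3B rose by 1.09 in TC32 and 1.93 in A673, and SNORA33 by 0.54 in TC32 and 1.44 in A673. SNHG12, a host gene of small nucleolar RNAs, fell by effects of -1.36 in TC32 and -0.30 in A673. SNORA3B and SNORA33 rose and the host transcripts SNHG12 and SNHG7 fell, each with the lower effect in TC32. The call of SNHG7 ended without 1 array or more.

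Among 43 genes of transcription elongation, 3 were called lower (6.98%) and 1 higher (2.33%), shares at the background of 6.99% and 2.81% of all genes. BRD3, a BET bromodomain protein, had 1.10 and 1.06 at 500 nM in TC32, against 2.52 and 2.43 with DMSO. A673 had 2.82 and 2.67 at 500 nM, against 3.02 and 3.30 with DMSO, and the difference was -0.98 ± 0.17 (SE, adjusted p = 0.000665). LEO1, a subunit of the PAF1 complex, had a difference of -0.91, and MEPCE, which caps 7SK RNA, of -0.76. CDK19, a kinase of the Mediator module, rose in TC32 and fell in A673, with effects of 0.44 in TC32 and -0.29 in A673. The 3 lower calls were 7 without A673 DMSO replicate 2 and 5 without TC32 500 nM replicate 2. Of 32 genes of the unfolded protein and integrated stress responses, 5 were called lower (15.6%) and 1 higher (3.12%), with a median difference of -0.10. ATF4, the central factor of the integrated stress response, had effects of -0.32 in TC32 and 0.37 in A673, HERPUD1, of degradation at the endoplasmic reticulum, of -2.16 in TC32 and -1.25 in A673, and SLC7A5, an amino acid transporter, of -0.59 in TC32 and 0.14 in A673. The 5 lower calls were 3 without either A673 500 nM array, TC32 DMSO replicate 1 or TC32 500 nM replicate 1. Of 28 genes of glycolysis and the response to hypoxia, 3 were called lower (VEGFA, ADM and KDM3A, 10.7%) and 2 higher (PDK1 and BNIP3L, 7.14%), with a median difference of 0.19, against 0.05 for all genes. VEGFA, the vascular growth factor, had 0.85 and 1.07 at 500 nM in TC32, against 2.04 and 2.02 with DMSO. A673 had 4.16 and 3.98 at 500 nM, against 3.72 and 4.08 with DMSO. It fell in TC32 and was not called in A673, with a difference of -1.24 ± 0.18 (SE, adjusted p = 0.000121), while ADM, the vasodilator adrenomedullin, rose by 0.50 in TC32 and 1.86 in A673. PDK1, a kinase that inhibits pyruvate dehydrogenase, had effects of 1.01 in TC32 and 0.10 in A673, and BNIP3L, a receptor for mitophagy, of 0.93 in TC32 and 0.22 in A673. The call of PDK1 ended without A673 500 nM replicate 1, TC32 DMSO replicate 1 or TC32 500 nM replicate 2, and that of KDM3A without 6 of the 12 arrays.

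Genes of homologous recombination and the damage checkpoint are the class best known for dependence on CDK12. Of 39 tested, 23 fell and 6 rose in TC32, beside 33.9% and 37.2% of all genes, and 23 fell and 4 rose in A673, beside 30.1% and 26.5%, with median effects of -0.40 in TC32 and -0.51 in A673, and for the difference 1 was called higher (FANCI, 0.54) and 2 lower (RNF8, -0.71, and H2AX, -0.42), 2.56% and 5.13% of the list. The 1 higher call was 3 without A673 DMSO replicate 1 and 0 without 8 of the other arrays, and the 2 lower calls were 0 without A673 500 nM replicate 1 or TC32 DMSO replicate 1. In 272 ZNF zinc finger genes, 213 fell in TC32 and 194 in A673, beside the 33.9% and 30.1% of all genes. For the difference 25 were called lower (9.19%) and 7 higher (2.57%), close to the 6.99% and 2.81% of all genes, and 202 had a group mean under 6. ZNF263 had effects of -1.04 in TC32 and 0.13 in A673 and had no mean under 6. The 25 became fewer without TC32 DMSO replicate 1 and more without A673 DMSO replicate 2. In the fit to genes with all means of at least 6, which leaves out those 202, the lower calls were 6, beside 405 of all 7075 genes in that fit. The 7 higher calls were 4 without A673 500 nM replicate 1, either TC32 DMSO array or TC32 500 nM replicate 2. The NF-kB and interferon genes (22 tested) and the drug efflux transporters (5 tested) had 0 calls in either direction. Of 46 SWI/SNF and chromatin regulators, 5 were called higher (ARID2, CHD3, CHD6, CHD9 and SUZ12, 10.9%) and 3 lower (6.52%). The 5 became 1, CHD3, without either A673 500 nM array or either TC32 DMSO array, and 8 without A673 DMSO replicate 1, and the 3 became 1 without A673 500 nM replicate 1, TC32 DMSO replicate 1 or TC32 500 nM replicate 1 and 5 without A673 DMSO replicate 2. Of the 11 Ewing sarcoma markers, 3 were called lower (FLI1, NKX2-2 and NPY1R, 27.3%) and 0 higher, with a median difference of -0.24, and the 3 became 5 without A673 DMSO replicate 2. The markers of other cell types had 0 calls. The remaining lists had medians between -0.07 and 0.12 and at most 4 calls in a direction. Their largest shares, beside 2.81% higher and 6.99% lower of all genes, were in 2 lists. Of 16 MAPK feedback and ERK output genes, 2 were called higher (EGR1 and IER3, 12.5%) and 2 lower (12.5%). Of 32 cleavage, polyadenylation and termination genes, 4 were called lower (12.5%) and 1 higher (3.12%). In both lists the lower calls became fewer without A673 DMSO replicate 1, either A673 500 nM array or TC32 DMSO replicate 1. Those of the MAPK list also became fewer without TC32 500 nM replicate 2. Those of the cleavage list also became fewer without TC32 DMSO replicate 2 or TC32 500 nM replicate 1, and more without A673 DMSO replicate 2. Those of heat shock and chaperone genes became more without A673 DMSO replicate 2.

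**Figure D3:**
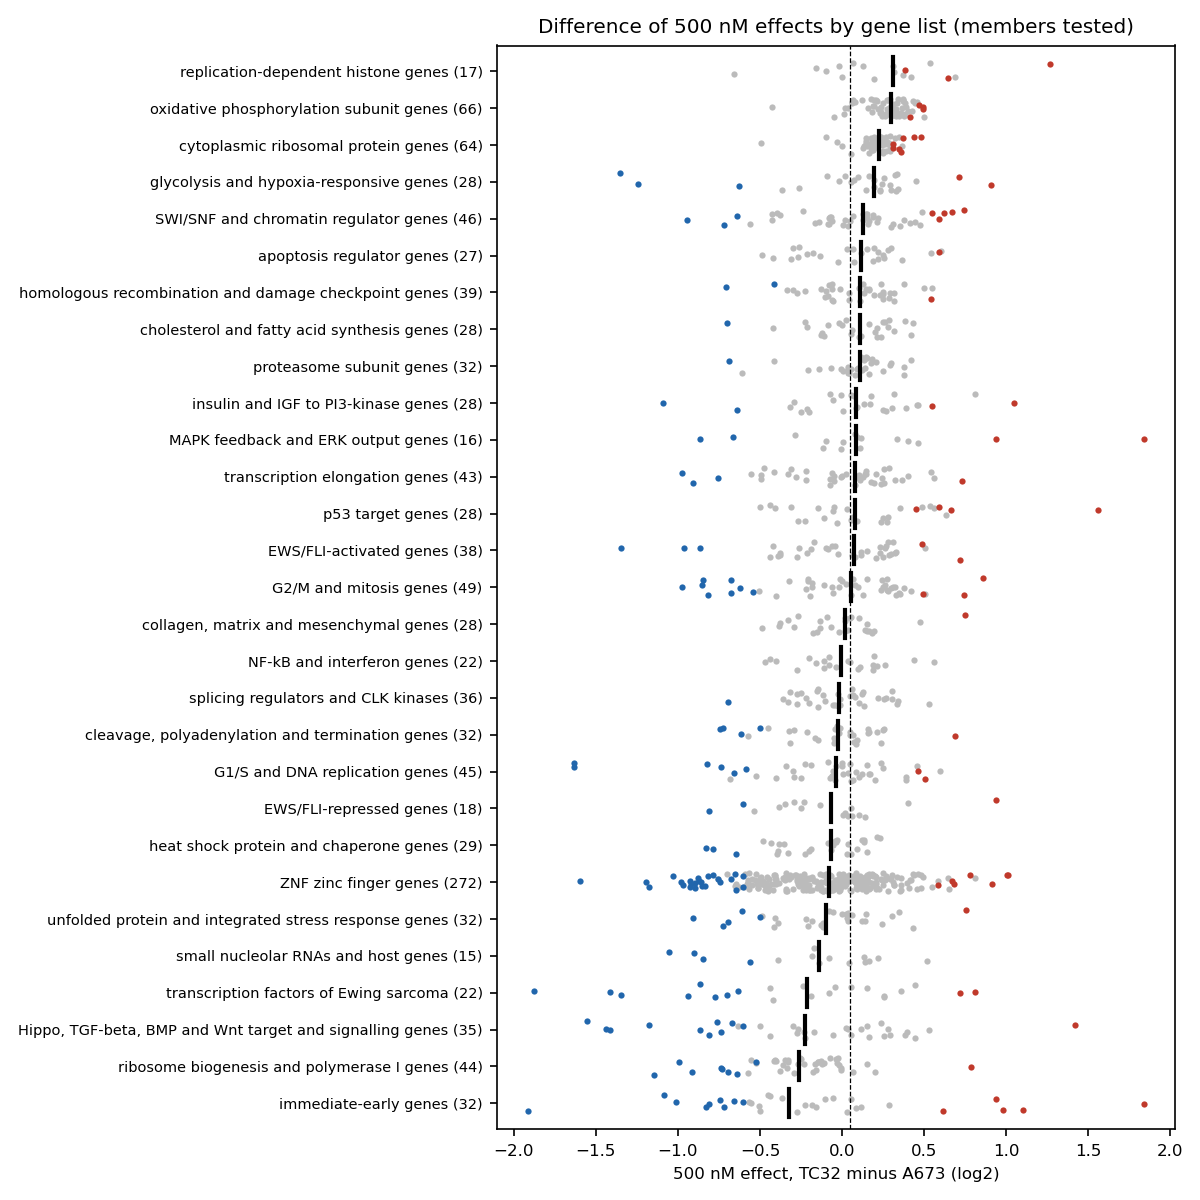
Difference of the 500 nM effects (TC32 minus A673, log2, horizontal axis) for each tested member of the gene lists with at least 10 tested members, red for genes called higher in TC32, blue for genes called lower and grey for the others, with a black bar at each list's median and a dashed line at the median of all 9505 genes. The immediate-early list has the lowest median, -0.32, with called genes at both ends.

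At 100 nM the same difference was called for 69 genes on the higher side (0.726%) and 168 on the lower side (1.77%). The doses share their DMSO arrays, so the values are set side by side only. Of the 267 genes called higher at 500 nM, 21 were called the same way at 100 nM and 1 the other way, and of the 664 called lower, 81 and 0. EGR1 had a difference of 0.95 at 100 nM and 1.84 at 500 nM, and GADD45A of 0.71 and 1.56. OSMR, PHF20L1 and SCG2 were already at 1.35, 1.57 and 1.37 at 100 nM, where all 3 were called. Differences of H2BC21 and TXNIP at 100 nM were 0.09 and 0.10, neither of them called. FOS had -0.23 at 100 nM, which was not called, and -1.91 at 500 nM. NMI, NANOS1 and CCNE1 were called lower at both doses, with -0.89, -1.20 and -0.93 at 100 nM. FLI1 had a larger difference at 100 nM, -1.69, than at 500 nM, -0.70.

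**Figure D4:**
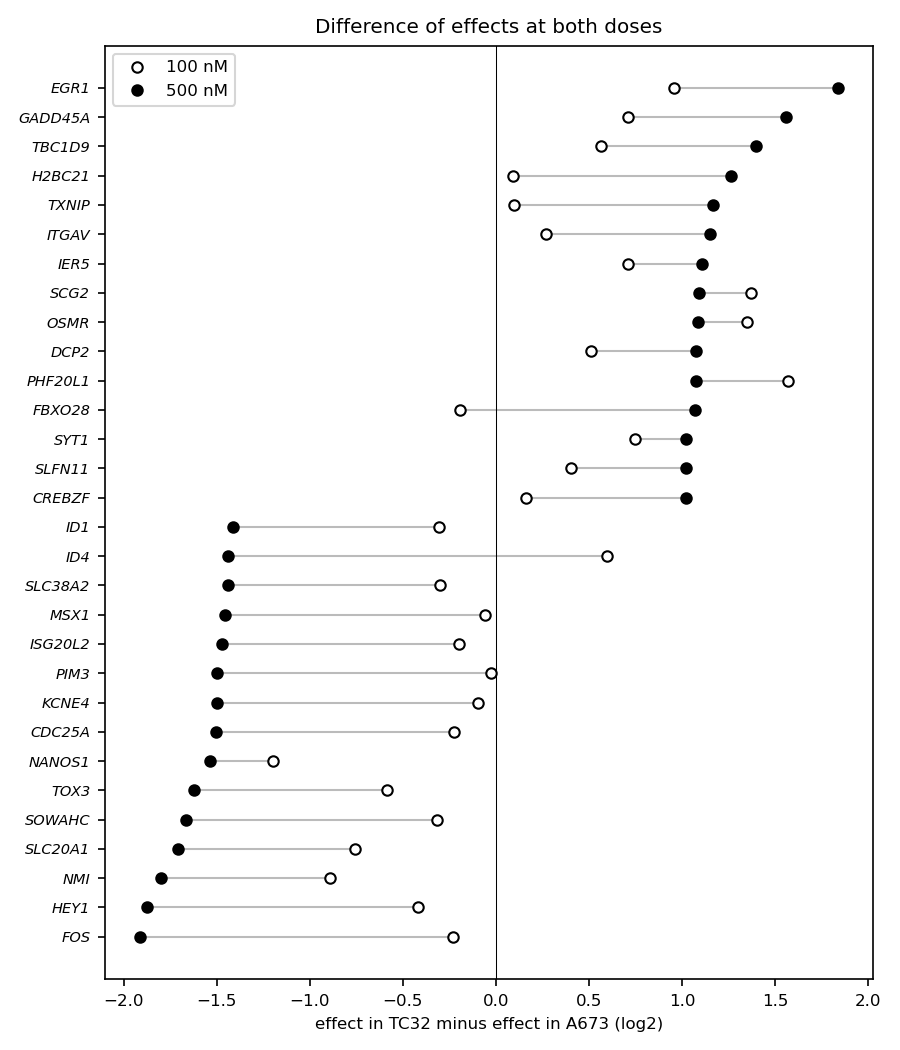
Effect in TC32 minus effect in A673 (log2, horizontal axis) at 100 nM (open points) and 500 nM (filled points) for the 15 genes with the largest positive and the 15 with the largest negative differences at 500 nM whose group means were all at least 6. The genes were chosen at 500 nM; most lie nearer 0 at 100 nM, while OSMR, PHF20L1 and SCG2 lie further out there.

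The called genes differed in genomic span, taken from RefSeq on GRCh38.p14 for 9502 of the tested genes. The median span was 64.0 kb for the genes called higher, 15.8 kb for those called lower and 28.7 kb for all. In the longest quartile, 67.2 to 2170 kb, 5.35% of genes were called higher in TC32 and 2.27% lower, whereas in the shortest, 0.127 to 11.5 kb, 1.94% were called higher and 11.1% lower. The median effect in the longest quartile was 0.01 in TC32 and -0.10 in A673, and in the shortest 0.26 in TC32 and 0.21 in A673. Long genes thus stood lower against short ones in both lines, by slightly less in TC32 in this fit. Without A673 DMSO replicate 2 the longest and shortest quartiles had medians of 0.01 and 0.26 in TC32. In A673 they were then -0.03 and 0.20, so the gap was no longer the smaller one in TC32. The third quartile of TC32, at -0.04, also lay below the longest. The median difference was 0.14 in the longest quartile and 0.00 in the shortest, and the first exceeded the second under every setting tried, by between 0.09 and 0.20, with the lowest values without A673 DMSO replicate 2. Without that array the longest quartile had 4.59% of genes called higher and 5.93% lower. Among genes with all means of at least 6, the shares were 5.43% higher and 1.39% lower in the longest quartile and 2.43% and 9.83% in the shortest. SYT1 spans 588 kb, TBC1D9 136 kb and ITGAV 90.8 kb among the genes called higher, yet EGR1 and GADD45A span 3.8 and 3.1 kb, and among the genes called lower FOS spans 3.4 kb and TOX3 111 kb. Neighbouring and related genes share regulation, so these shares describe the genes and carry no test.

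**Figure D5:**
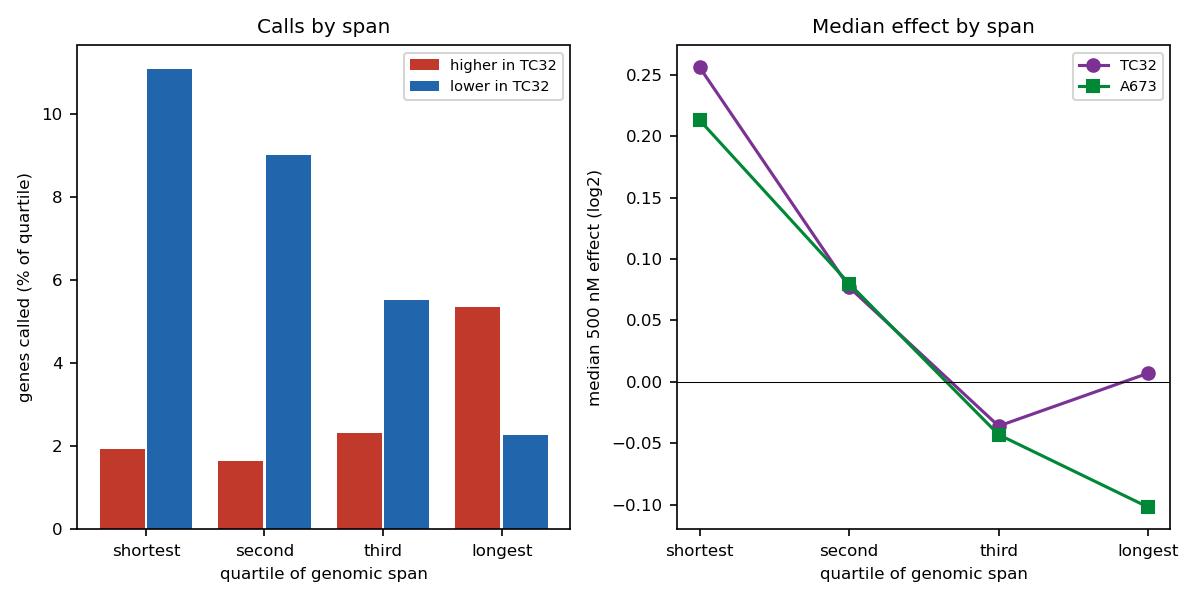
Left, share of genes called higher (red) and lower (blue) in TC32 (vertical axis, percent) by quartile of genomic span, from shortest to longest. Right, median effect of 500 nM (log2) in TC32 (circles) and A673 (squares) for the same quartiles; the lines part in the longest quartile, at 0.01 in TC32 and -0.10 in A673.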

How the data were processed

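Total RNA of 12 arrays (2 lines, DMSO, 100 nM and 500 nM, 2 arrays per group, 6 hours) was labelled with biotin. The deposited table holds log2 signals made by the authors, with a normalisation not given in the sources used here. MAS5, GRCh37 and hg19 appear in the submitters' processing notes, with no role stated. The dose of 100 nM that labels of DMSO samples also carry was read as not applying. Of 49395 probe sets, 44994 pair with 1 gene, 1832 with several and 2569 with none. The 2829 with at most 2 decimals were left out, and so were 116 genes whose values another symbol shares, which left 16913 genes. For 10 genes with several sets of values, the probe set with the highest mean was used.

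Each array was centred on its median over these genes. limma 3.58.1 (R 4.3.3) fitted the 6 group means to the 12 arrays, with a variance trend. The fit had 6 residual degrees of freedom, and the median residual SD was 0.117. P-values were adjusted by Benjamini-Hochberg over the 9505 genes. Scaling, filters, the variance trend, the arrays used, a replicate block and each array's omission were tried as alternatives. The number of arrays limits the precision.

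Genes were named by rule: the 15 largest differences each way among called genes with all means of at least 6 and array differences that do not overlap, the 5 largest each way with a mean under 6, the 5 each way with the largest smaller effect among opposite calls, up to 4 called members per list, and CDK12, CDK13, CCNK, EWSR1, FLI1 and MYC. Other members of a list named without a value were called by the same test. The genes, lists and tests were chosen with earlier results of these data known. Gene spans and promoters come from RefSeq (GRCh38.p14), matched by symbol, with 17015 of 17029 symbols found. Figures were drawn with matplotlib 3.10.9.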

Additional observations from a re-analysis of the deposited data

Results flagged for a closer look

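Every difference in the report is one between the responses of the lines, and those listed here moved in opposite directions in them, with the difference itself tested by limma at an adjusted p under 0.05. Genes that rose in TC32 and fell in A673 were ITGAV with a difference of 1.15, DCP2 with 1.08, SYT1 with 1.02, ZNF85 with 1.01, DND1 with 0.85 and CDK19 with 0.73. Genes that fell in TC32 and rose in A673 were HEY1 with -1.88, RASL11B with -1.83, SOWAHC with -1.67, KCNE4 with -1.50, MSX1 with -1.45, GATA2 with -1.36 and ATF4 with -0.69. ZNF85 is a zinc finger gene whose mean at 500 nM lay under 6 in A673, and DND1 is an RNA-binding protein of germ cells. The A673 means of HEY1 on the deposited scale lay near 6, at 6.10 with DMSO and 6.01 at 500 nM. All 13 calls of a difference held without each of the 12 arrays. Those calls do not cover the opposite directions, and opposite calls of both kinds became fewer without some single arrays. The fall of ZNF85 in A673 was near the threshold (limma, adjusted p = 0.0409). On the deposited scale, where the median effect was -0.72 in TC32 and -0.79 in A673, 0 genes were called in opposite directions in the lines.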

How the results depend on the processing

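The counts of genes called higher in TC32, lower in TC32, higher in TC32 and lower in A673, and lower in TC32 and higher in A673 were 267, 664, 15 and 34. They were 32, 109, 0 and 0 as deposited, 1154, 1013, 32 and 107 with centring on the tested genes, and 818, 1286, 42 and 75 with quantile normalisation. All 32 and 109 calls as deposited were among the 267 and 664. Of the 15 and 34 genes with opposite calls, 5 and 10 stayed so with centring on the tested genes. With quantile normalisation 8 and 17 of them did, so the larger counts there are mostly other genes. Without the DMSO filter the opposite calls were 51 and 65, and they were 13 and 19 with a DMSO mean of at least 7, 14 and 20 with all 4 means of at least 6, and 11 and 19 with DMSO means within 1 of each other. Keeping all 4 means of at least 6 gave 405 lower calls, of fewer genes tested. Leaving out each array in turn gave 87 to 505 higher calls, 325 to 1104 lower calls, and 4 to 31 and 14 to 59 opposite calls. With 8 arrays the counts were 274 and 658 and without the variance trend 224 and 633.

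The replicate block gave 385, 789, 13 and 37 calls. Deviations of same-numbered arrays correlated between -0.12 and 0.31 over the 6 pairs of groups, so the numbers were not taken to pair the arrays. Of 123 called named genes, 123 were called with the block, 57 as deposited and 111 with quantile normalisation, where RPS27L turned to -0.019 (limma, adjusted p = 0.893). The call ended without 1 array or more for 46 of them. The cause of these shifts was not tested. With no detection calls, levels under 6 have no known limit of detection, and where an omission leaves 1 array in a group, that array is assumed to vary like the others.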
